A study of Homo sapiens with 24 samples.

Results

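Respiratory complex I oxidises NADH in the mitochondrial matrix, passes the electrons to ubiquinone and pumps protons across the inner membrane. Its L-shaped structure has a peripheral arm in the matrix, which carries the flavin and the iron-sulfur clusters, and a membrane arm that moves the protons. Core subunits of the membrane arm are encoded in mitochondrial DNA, and the remaining subunits are encoded in the nucleus and imported. The nuclear genes were taken as the rows of the count table whose symbol was NDUF followed by A, B, C, S or V and a number, or was NDUFAB1, which gave 38 of 28307 genes. They comprised 7 core subunits of the peripheral arm, 9 accessory subunits of the peripheral arm, 9 subunits of the membrane arm next to it, 11 subunits of the distal membrane arm (NDUFB1 to NDUFB11), the acyl carrier protein NDUFAB1, and NDUFA4, which is named after complex I but is now assigned to complex IV. The subunits encoded in mitochondrial DNA were not analysed here.

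RNA was sequenced from SUM159, a breast cancer line, and SW620, a colon cancer line. Cells were kept for 30 h with nifuroxazide (NIF), a nitrofuran antibiotic reported to inhibit STAT3, or with the vehicle DMSO, and were then sorted by the ALDEFLUOR assay into cells with high (ALDHbr) or low (ALDHneg) aldehyde dehydrogenase activity. Each of the 8 groups held 3 libraries from independent experiments, 24 libraries in all, and each line was a single unmodified line. Total counts per library ran from 30253187 to 43127948, and the 38 genes together took 0.273% to 0.381% of them. Levels are given as CPM, read counts divided by the library total in units of 1e6 reads after TMM scaling within a line, unless both lines are compared. Every gene of the set passed the filter on low counts in both lines, so that all 38 were tested in each comparison. The counts are shares of a library, so less of a transcript per cell and fewer cells that carry it cannot be told apart.

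The labels of the lines matched their markers. Summed over 8 colon epithelial markers, SUM159 libraries held 0.174 to 7.66 CPM and SW620 libraries 2031 to 2666 CPM, whereas 8 mesenchymal markers summed to 9207 to 12340 CPM in SUM159 and 94.5 to 173 CPM in SW620. ALDH1A1, a main source of ALDEFLUOR activity, lay between 97.3 and 206 CPM in SUM159 ALDHbr libraries and between 0.281 and 0.591 CPM in SUM159 ALDHneg libraries. In SW620 the sort separated it less, with 980 to 1440 CPM in ALDHbr and 570 to 976 CPM in ALDHneg libraries. ALDH1A3, the other gene checked for the sort, went the other way in SW620 under DMSO. Its mean was 146 CPM in ALDHbr and 188 CPM in ALDHneg libraries, and 52.8 and 51.0 CPM under NIF. In SUM159 under DMSO its means were 0.582 and 0.189 CPM. Libraries of several groups stood apart from their replicates in the 38 complex I genes. The second SW620 ALDHbr DMSO library was the lowest of its group for 36 of the 38 genes, with a mean log2 CPM of 5.96 against 6.31 and 6.24, and the second SUM159 ALDHneg DMSO library was the highest of its group for 35, with 6.22 against 6.01 and 5.99. The SW620 ALDHbr NIF group was also wide, at 5.86, 5.98 and 6.14. Comparisons that use those libraries are given with and without them where the count of calls changed.

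**Figure D1:**
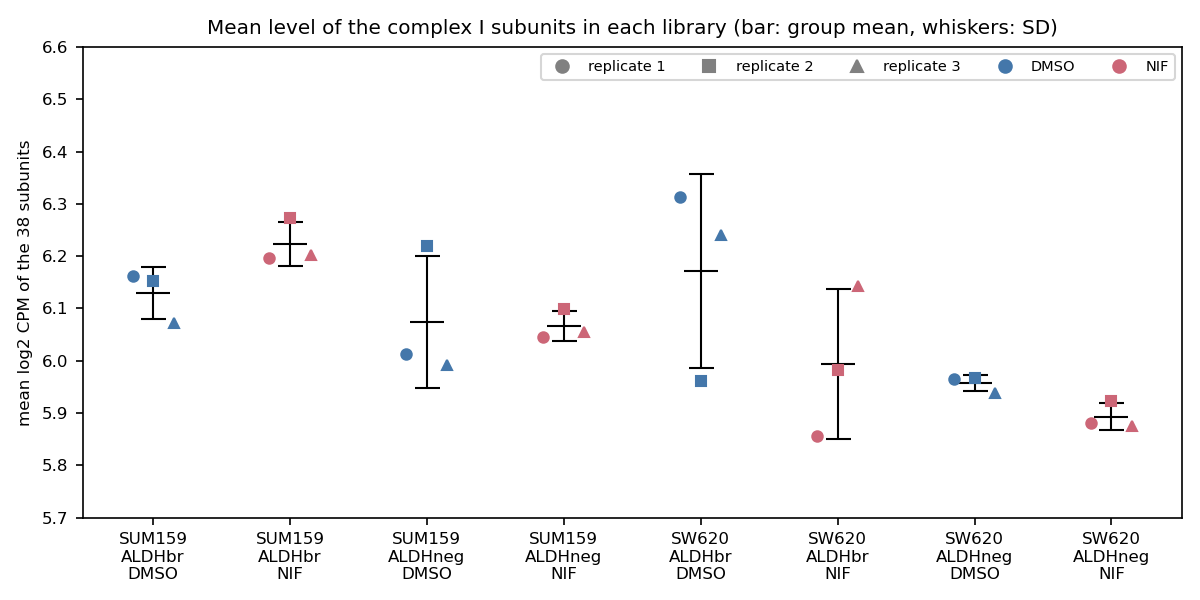
Mean log2 CPM of the 38 complex I genes (y axis) in each of the 24 libraries, grouped by line, population and treatment (x axis). Symbols are single libraries, bars group means and whiskers SD (n = 3). SW620 ALDHbr libraries spread from 5.86 to 6.31, and the SW620 ALDHneg libraries lie between 5.87 and 5.97.

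NDUFA9, NDUFS3, NDUFB1 and NDUFS1 were the 4 genes called lower under NIF in both populations of SW620. Of all tested genes, 21.9% were called lower in ALDHbr and 22.7% in ALDHneg cells, and the share called lower in both was not counted. The bases before the starts of these 4 genes are shown for that reason. The sequences are from RefSeq on GRCh38.p14, read 5′ to 3′ up to the base before the annotated start, and were cut where a neighbouring gene began. NDUFA9 lies on chromosome 12 at 4649114 to 4694317, NDUFS3 on chromosome 11 at 47579074 to 47584562, NDUFB1 on chromosome 14 at 92116123 to 92121706 (minus strand) and NDUFS1 on chromosome 2 at 206114817 to 206159444 (minus strand). Capitals mark the ETS core CCGGAAG and the CCAAT box, on either strand.
NDUFA9 (chr12:4649052-4649113, plus strand): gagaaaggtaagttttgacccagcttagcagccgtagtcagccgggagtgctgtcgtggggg
NDUFS3 (chr11:47578971-47579073, plus strand): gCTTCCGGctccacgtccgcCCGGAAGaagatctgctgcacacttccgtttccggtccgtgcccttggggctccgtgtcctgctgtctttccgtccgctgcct
NDUFB1 (chr14:92121707-92121956, minus strand): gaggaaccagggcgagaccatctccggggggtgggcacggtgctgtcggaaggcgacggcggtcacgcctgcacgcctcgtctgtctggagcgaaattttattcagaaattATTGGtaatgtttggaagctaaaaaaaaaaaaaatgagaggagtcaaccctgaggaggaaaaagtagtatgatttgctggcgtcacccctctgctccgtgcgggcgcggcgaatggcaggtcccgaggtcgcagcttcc
NDUFS1 (chr2:206159445-206159608, minus strand): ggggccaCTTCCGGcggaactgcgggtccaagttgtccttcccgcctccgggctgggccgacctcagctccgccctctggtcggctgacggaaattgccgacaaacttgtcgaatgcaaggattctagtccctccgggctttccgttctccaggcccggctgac
The ETS core, the letters recognised by NRF2/GABP among other ETS proteins, occurred before NDUFS3 and NDUFS1, and the CCAAT box before NDUFB1. None of the 5 motifs searched occurred in the stretch printed for NDUFA9, whereas its full window, which runs from 250 bases before to 50 after the start and into AKAP3, held the YY1 core and the TATA box. The neighbouring genes AKAP3, KBTBD4 and EEF1B2 reach into the 250 bases before NDUFA9, NDUFS3 and NDUFS1, respectively.

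Promoter windows, from 250 bases before to 50 bases after a start, were at hand for 33 of the 38 genes. The YY1 core AAGATGG (or CCATCTT) was present in 9 of them (27.3%), against 7.11% of windows of all 27305 genes with one and 8.83% of the genes tested. The NRF1 core GCGCATGC (or GCATGCGC) was present in 6 (18.2%), against 3.68% of all and 5.97% of tested genes. The ETS core was present in 5 (15.2%), against 12.2% of all and 20.3% of tested genes, the CCAAT box (CCAAT or ATTGG) in 8 (24.2%), against 39.7% and 42.8%, and the TATA box (TATAAA or TTTATA) in 3 (9.09%), against 14.0% and 9.64%. No motif contained another. These letters describe the windows and do not locate bound sites.

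The first question was whether NIF changed these transcripts in the ALDHbr cells, which the study treats as enriched in cancer stem cells. In SW620 ALDHbr cells 11 of the 38 genes fell under NIF and none rose by edgeR's quasi-likelihood test with Benjamini-Hochberg adjustment over all genes at 0.05, where 21.9% of all tested genes were called lower and 21.4% higher. The share that fell, 28.9%, was thus not far above that of all genes, while none rose. The median log2 change of the 38 genes was -0.18, against -0.01 over all genes, and 34 of the 38 values were negative. The genes that fell included the core subunits NDUFS1 and NDUFS3, the accessory subunit NDUFA9, NDUFA10 and NDUFC1 of the membrane arm next to it, NDUFB1, NDUFB3, NDUFB6 and NDUFB11 of the distal arm, and NDUFAB1. Without the second SW620 ALDHbr DMSO library 30 genes fell and none rose, where 50.4% of all genes were called, and without the third NIF library 22 fell, where 42.8% were called. Without any other single library of these groups 4 to 6 fell. With scaling by library size 20 fell, where 44.3% of all genes were called, and in a fit of only the 6 ALDHbr libraries 3 fell, where 32.6% were called.

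NDUFA9, an accessory subunit at the foot of the peripheral arm near the ubiquinone site, read 104, 88.2 and 97.3 CPM in the SW620 ALDHbr DMSO libraries and 67.1, 71.8 and 79.0 CPM under NIF. The groups did not overlap, and the log2 change was -0.41 (SE 0.07, adjusted p = 0.000346, edgeR). NDUFS3, a core subunit without a cofactor of its own, read 93.5, 73.9 and 90.5 CPM under DMSO and 57.4, 66.7 and 72.4 CPM under NIF. The highest NIF library lay just under the lowest DMSO library, and the log2 change was -0.39 (SE 0.09, adjusted p = 0.00391, edgeR). NDUFB1, a small single-pass subunit of the distal membrane arm, read 29.5, 22.4 and 26.1 CPM under DMSO and 16.7, 19.0 and 22.1 CPM under NIF. Its groups came within 1 CPM of each other, and the log2 change was -0.44 (SE 0.11, adjusted p = 0.00579, edgeR). These 3 genes were called in each of the 6 fits that left out 1 library and in each of the 8 other alternatives.

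Among the core subunits, NDUFS1, the largest of them and the holder of several iron-sulfur clusters, read 150, 153 and 151 CPM under DMSO and 140, 139 and 132 CPM under NIF. The change was small but the groups did not overlap (log2 -0.15, SE 0.05, adjusted p = 0.0173, edgeR). Values that did not pass were -0.20 for NDUFV2 (adjusted p = 0.0518, edgeR), -0.18 for NDUFS7, -0.16 for NDUFV1, the subunit that binds FMN and accepts electrons from NADH, and -0.13 for NDUFS8. NDUFAB1, the mitochondrial acyl carrier protein, which also serves mitochondrial fatty acid and lipoic acid synthesis, read 158, 120 and 149 CPM under DMSO and 103, 110 and 128 CPM under NIF. Its groups overlapped through the second DMSO library, and the log2 change was -0.32 (SE 0.09, adjusted p = 0.0137, edgeR). NDUFA4 read 108, 91.2 and 108 CPM under DMSO and 94.4, 103 and 110 CPM under NIF, a log2 change of 0.00 (SE 0.07, adjusted p = 0.996, edgeR). This was not particular to NDUFA4. Values just above 0 were also found for 2 peripheral accessory subunits and 1 of the proximal membrane arm, up to 0.06.

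By position, 1 of 9 peripheral accessory subunits, 2 of 9 subunits of the proximal membrane arm and 4 of 11 of the distal arm fell in SW620 ALDHbr cells, with median log2 changes of -0.18, -0.17 and -0.24. These groups thus had similar medians. NDUFC1 (adjusted p = 0.0499, edgeR) and NDUFB3 (adjusted p = 0.0427, edgeR) were the calls nearest to the threshold, and NDUFV2 and NDUFB8 (adjusted p = 0.0593, edgeR) lay just outside it.

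**Figure D2:**
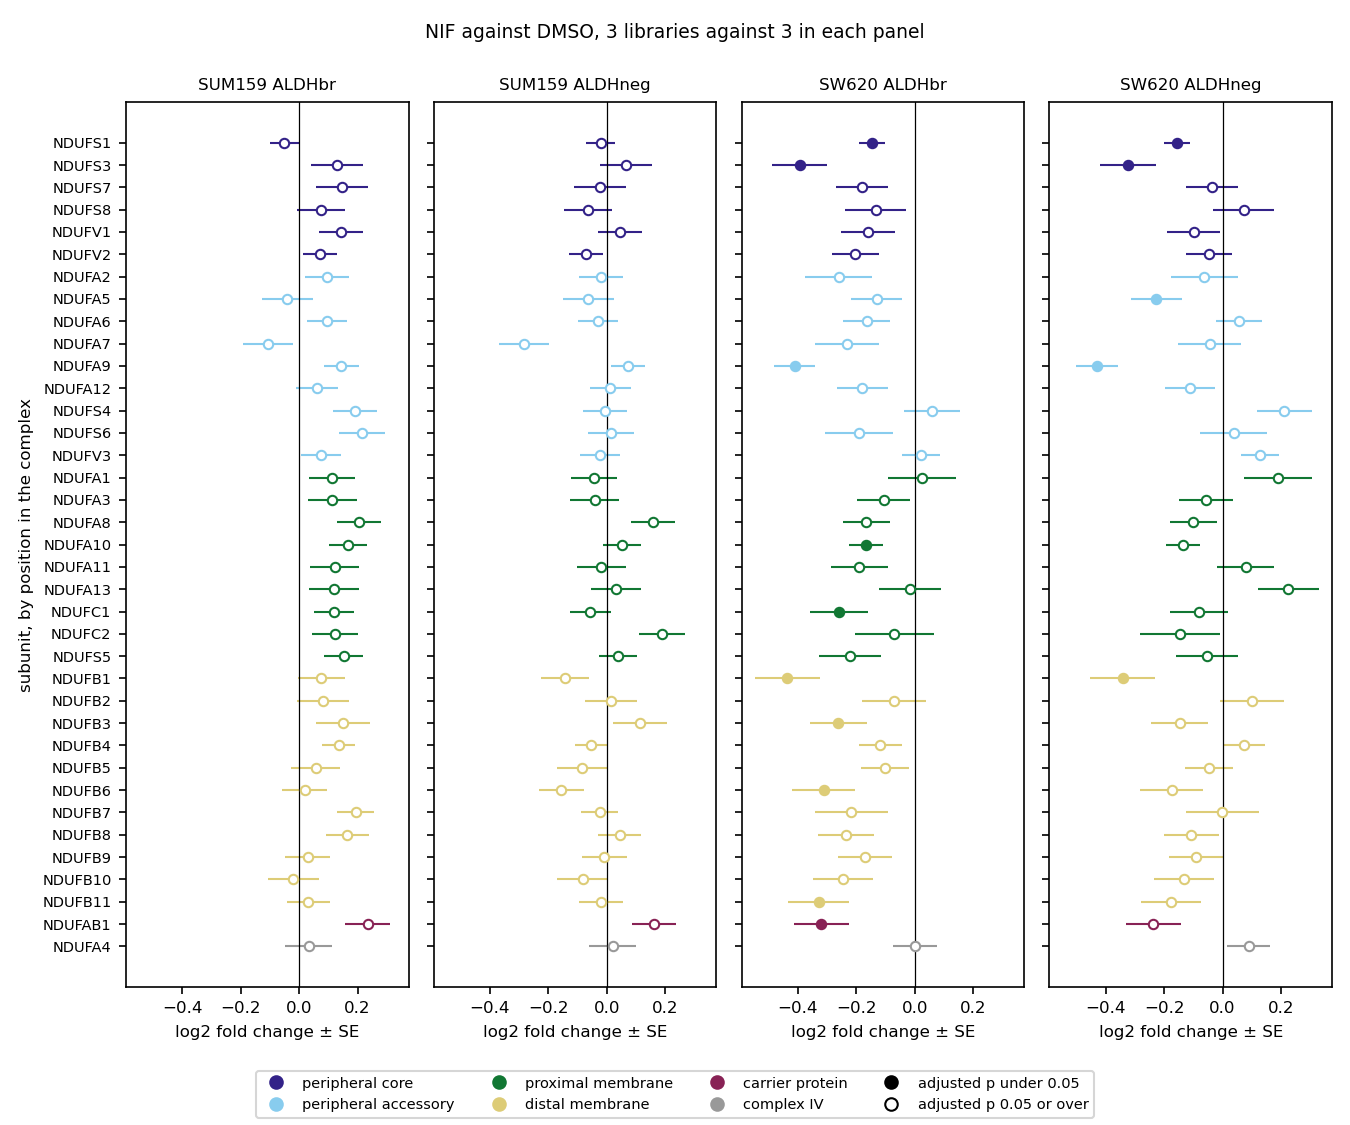
Log2 fold change of NIF against DMSO (x axis, with SE) for 37 of the 38 genes (y axis, coloured by position in the complex) in the ALDHbr and ALDHneg cells of both lines. Filled points passed an adjusted p of 0.05. In SW620 ALDHbr cells 33 of 37 points lie below 0 and 10 are filled, and in SUM159 none is filled.

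In SW620 ALDHneg cells 5 genes fell and none rose under NIF, where 22.7% of all tested genes were called lower and 22.3% higher. They were NDUFA9, NDUFB1, NDUFS3, NDUFS1 and NDUFA5, of which the first 4 also fell in ALDHbr cells. The share that fell, 13.2%, was thus below that of all genes. The share of all genes called lower in both populations was not counted. Without the second DMSO library 2 fell, where 37.9% of all genes were called. Lower calls made up 50.5% of the calls over all genes and 60.6% with library-size scaling, where 8 of the 38 fell and none rose. The share of all genes called with that scaling is not given here. The median over the 38 genes was -0.07, against -0.01 over all genes, and 27 values were negative. NDUFA9 read 86.3, 85.5 and 87.1 CPM under DMSO and 65.5, 66.1 and 60.6 CPM under NIF. The gap between these groups was far wider than the spread within either, and the log2 change was -0.43 (SE 0.07, adjusted p = 0.000213, edgeR). NDUFB1 read 20.6, 23.2 and 20.8 CPM under DMSO and 15.6, 17.9 and 17.6 CPM under NIF (log2 -0.34, SE 0.11, adjusted p = 0.0226, edgeR), with no overlap. NDUFS3 read 72.5, 70.4 and 67.7 CPM under DMSO and 55.4, 60.0 and 52.9 CPM under NIF (log2 -0.32, SE 0.09, adjusted p = 0.0123, edgeR), again with no overlap. NDUFS1 read 159, 158 and 151 CPM and then 139, 140 and 141 CPM, a log2 change of -0.16 (SE 0.05, adjusted p = 0.0111, edgeR). NDUFA5, an accessory subunit of the peripheral arm, passed narrowly (log2 -0.23, adjusted p = 0.0478, edgeR). NDUFAB1 had a log2 change of -0.24 (adjusted p = 0.0542, edgeR) and NDUFA4 of 0.09 (adjusted p = 0.350, edgeR).

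At the other end in SW620 ALDHneg cells, NDUFA13, NDUFS4 and NDUFA1 had log2 changes of 0.23, 0.21 and 0.19, none past the threshold. When only the 6 ALDHneg libraries were fitted, 15 genes fell and 6 rose, where 60.6% of all genes were called, so the count for this population depended on which libraries set the spread. The added falls there included NDUFAB1 (adjusted p = 1.4e-05, edgeR) and the rises included NDUFA13 (adjusted p = 3.76e-05, edgeR) and NDUFS4 (adjusted p = 0.000455, edgeR). The difference between the NIF effects in ALDHbr and ALDHneg cells of SW620 was called for none of the 38 genes, and 0.00717% of all genes, or 1 gene, was called. No gene of the set passed an unadjusted p of 0.05 in that test, where 5.53% of all genes did, and DESeq2 called none of the set and 0.208% of all genes. The median difference was -0.12.

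**Figure D3:**
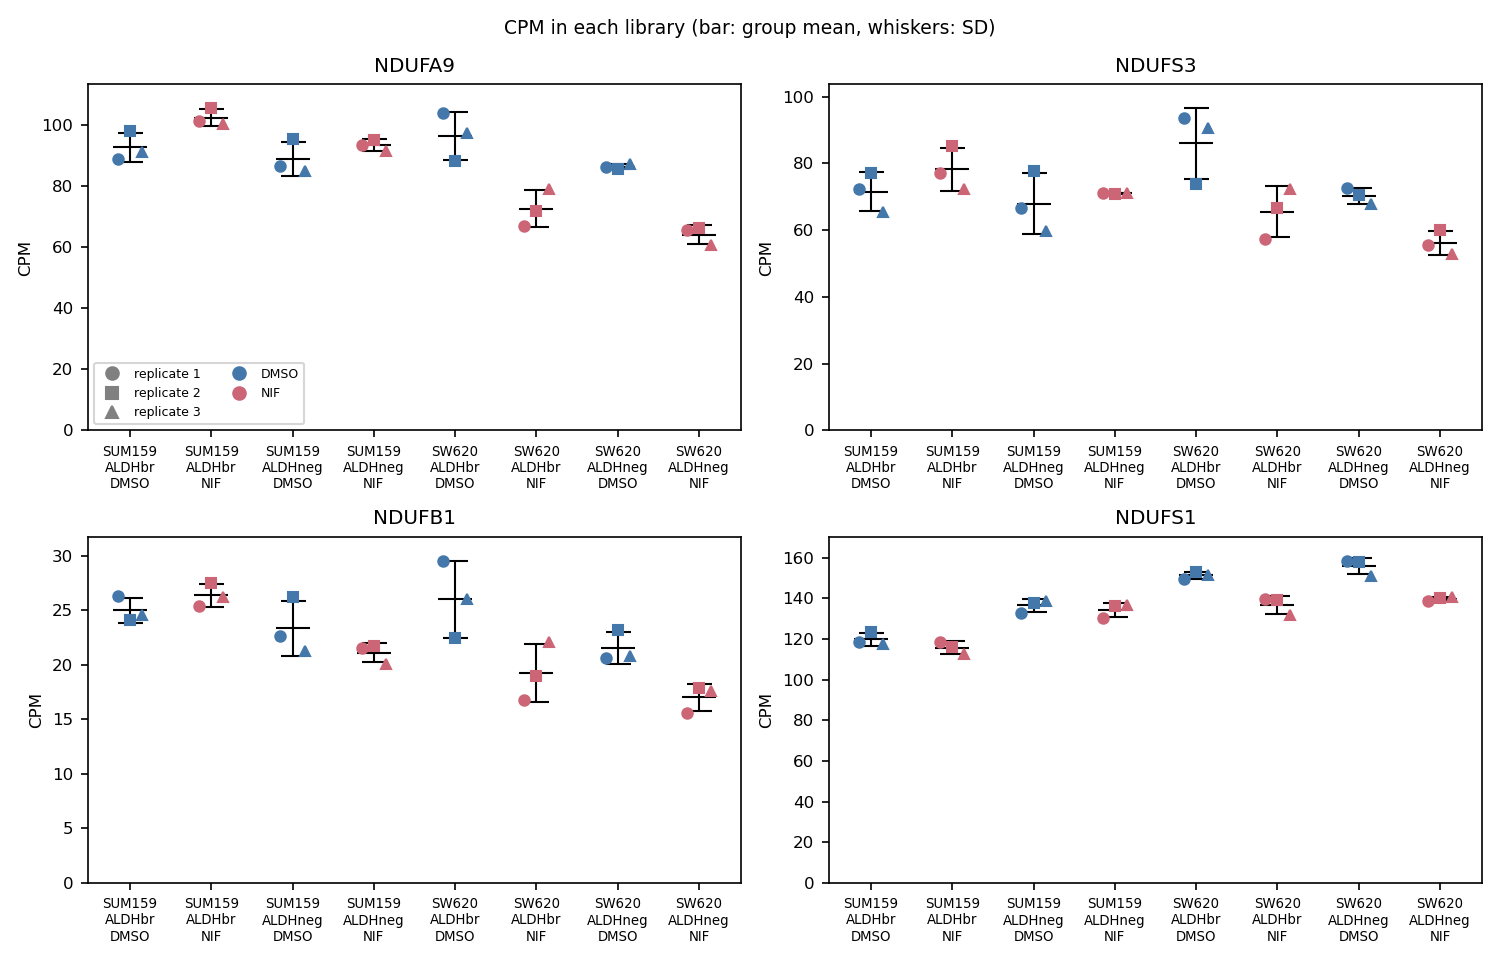
CPM (y axis, from 0) of NDUFA9, NDUFS3, NDUFB1 and NDUFS1 in each library, by group (x axis). Symbols are libraries, bars group means and whiskers SD (n = 3). In both SW620 populations the NIF libraries lie below the DMSO libraries for all 4 genes, which were picked as called lower in both. Of 13953 tested genes, 3134 in ALDHbr and 4471 in ALDHneg cells of SW620 had every NIF library below every DMSO library. In SUM159 NDUFA9 under NIF reads 100 to 106 CPM in ALDHbr cells against 88.9 to 97.9 CPM under DMSO.

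In SUM159 ALDHbr cells none of the 38 genes was called in either direction, where 0.936% of all tested genes were called higher and 2.23% lower. At an unadjusted p of 0.05, 10 genes passed, all with positive changes, where 16.7% of all genes passed, and DESeq2 called none, against 6.35% of all genes. The values nevertheless leaned upward: 33 of 38 were positive, with a median of 0.11 against 0.00 over all genes, and in 13 genes every NIF library was above every DMSO library, as was the case for 11% of all genes. In SUM159 libraries with the same replicate number deviated together, and with the replicate block 8 genes rose and none fell, where 13.3% of all genes were called. These 8 were NDUFAB1, NDUFS6, NDUFA10, NDUFB7, NDUFA8, NDUFS4, NDUFA9 and NDUFS5, with log2 changes of 0.14 to 0.23. NDUFAB1 had the highest value. It read 107, 113 and 104 CPM under DMSO and 120, 134 and 127 CPM under NIF, so that every NIF library was above every DMSO library (log2 0.23, SE 0.08, adjusted p = 0.115, edgeR; adjusted p = 0.0034 with the block). NDUFS6, a zinc-binding subunit of the peripheral arm, read 171, 168 and 155 CPM under DMSO and 186, 203 and 185 CPM under NIF (log2 0.21, SE 0.08, adjusted p = 0.168, edgeR; 0.0144 with the block). The lowest values were those of NDUFA7 (log2 -0.11) and NDUFS1 (log2 -0.05). NDUFA4 read 180, 177 and 165 CPM under DMSO and 180, 190 and 163 CPM under NIF, a log2 change of 0.03.

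In SUM159 ALDHneg cells none was called, where 1.1% of all tested genes were called higher and 2.2% lower. At an unadjusted p of 0.05, 2 genes passed, against 16.8% of all genes, and DESeq2 called 1 gene, NDUFA7, against 7.33% of all genes. The median was -0.02, with 15 positive and 23 negative values. This direction rested on the second DMSO library, the one that stood high: without it the median was 0.06, 9 of 38 values were negative, and NDUFAB1 (log2 0.26, adjusted p = 0.0375, edgeR) and NDUFA8 (log2 0.25, adjusted p = 0.0407, edgeR) rose, where 3.82% of all genes were called. Without the third DMSO library 1 gene fell. NDUFA7, an accessory subunit of the peripheral arm, read 40.5, 40.1 and 33.1 CPM under DMSO and 30.2, 33.2 and 30.1 CPM under NIF. The third DMSO library lay among the NIF libraries, and the log2 change was -0.28 (SE 0.09, adjusted p = 0.0932, edgeR). With the replicate block NDUFA7 (adjusted p = 0.00514, edgeR) fell and NDUFAB1 (log2 0.17, adjusted p = 0.0332, edgeR) rose, where 13.2% of all genes were called. The other named extremes were NDUFB6 (log2 -0.16) and NDUFC2 (log2 0.19), neither called without the block. The difference between the NIF effects of the populations in SUM159 had a median of 0.11, with 36 of 38 values positive. Without the second ALDHneg DMSO library the median was 0.05, 14 of the 38 values were negative and none passed an unadjusted p of 0.05. No gene of the set or of the table was called (0% of all genes), 2 of the set passed an unadjusted p of 0.05, where 1.59% of all genes did, and DESeq2 called none of the set and 0.0134% of all genes.

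Next, the NIF effects of the lines were compared directly, by the line by treatment term in a fit of all 24 libraries. In ALDHbr cells all 38 differences, SW620 minus SUM159, were negative, with a median of -0.27 against 0.01 over all genes. Of these, 11 were called negative and none positive, where 10.7% of all genes were called negative and 12.4% positive. The differences were largest for NDUFA9 (log2 -0.56, SE 0.10, adjusted p = 0.000127, edgeR) and NDUFAB1 (log2 -0.55, SE 0.13, adjusted p = 0.00265, edgeR), followed by NDUFS3 (-0.52) and NDUFB1 (-0.51). The remaining calls were NDUFB7, NDUFB3, NDUFB8, NDUFC1, NDUFS5, NDUFA8 and NDUFA10, between -0.34 and -0.41. NDUFA10, NDUFS3, NDUFA9, NDUFB1 and NDUFAB1 were called in each of the 12 fits that left out 1 library. With the replicate block 17 genes were called, all negative, where 26.9% of all genes were called. Without the second SW620 ALDHbr DMSO library the number was 26, all negative, against 28% of all genes, without the third SW620 ALDHbr NIF library 22, against 23.6%, and without any other single library 5 to 9. The mean log2 CPM of the 38 genes moved from 6.13 ± 0.05 (SD, n = 3) under DMSO to 6.22 ± 0.04 under NIF in SUM159 ALDHbr cells, and from 6.17 ± 0.19 to 5.99 ± 0.14 in SW620 ALDHbr cells.

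In ALDHneg cells 2 differences were called, both negative, where 10.5% of all genes were called negative and 11.9% positive: NDUFA9 (log2 -0.49, SE 0.10, adjusted p = 0.000419, edgeR) and NDUFAB1 (log2 -0.39, SE 0.13, adjusted p = 0.0296, edgeR). NDUFS3 lay just outside (log2 -0.38, adjusted p = 0.0504, edgeR) and was called with the replicate block (adjusted p = 0.0223, edgeR), where 26.1% of all genes were called. Without the second SUM159 ALDHneg DMSO library 5 were called, all negative (NDUFA9, NDUFAB1, NDUFS3, NDUFA8 and NDUFB3), where 22% of all genes were called, and without any other single library 1 to 3. The median of the 38 differences was -0.02, with 23 negative and 15 positive values, and -0.10 with 29 negative values without that library. Negative calls made up 46.7% of the calls over all genes and 59.1% with library-size scaling, where 6 of the 38 were called, all negative. The share of all genes called with that scaling is not given here.

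The populations were then compared within each treatment. In SUM159 under DMSO 2 genes were higher and 2 lower in ALDHbr than in ALDHneg cells, where 10.7% of all tested genes were called higher and 12.3% lower. NDUFB5, of the distal membrane arm, read 62.9, 57.4 and 62.3 CPM in ALDHbr and 50.2, 54.9 and 44.3 CPM in ALDHneg libraries, without overlap (log2 0.29, SE 0.08, adjusted p = 0.0211, edgeR). NDUFA4 read 180, 177 and 165 CPM in ALDHbr and 137, 165 and 135 CPM in ALDHneg libraries, where the second ALDHneg library read like the lowest ALDHbr library (log2 0.26, SE 0.08, adjusted p = 0.0317, edgeR). NDUFA10, a membrane arm subunit with a nucleoside kinase fold, was lower in ALDHbr cells (log2 -0.25, SE 0.07, adjusted p = 0.0129, edgeR), as was NDUFS1 (log2 -0.19, SE 0.05, adjusted p = 0.0136, edgeR). With the replicate block 9 genes were called, 7 higher and 2 lower, where 36% of all genes were called. Without the second SUM159 ALDHneg DMSO library, the one that stood high, 11 were higher and 2 lower, against 20.3% of all genes called, and without any other single library 1 to 3 were called.

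Under NIF 12 genes were higher and 1 lower in SUM159 ALDHbr than in ALDHneg cells, where 9.95% of all tested genes were called higher and 12% lower. The share that was higher, 31.6%, lay above that of all genes. The higher genes included 6 of 11 subunits of the distal membrane arm (NDUFB1, NDUFB4, NDUFB5, NDUFB6, NDUFB7 and NDUFB9), 3 of 9 of the proximal membrane arm (NDUFA1, NDUFA3 and NDUFS5), NDUFA2, NDUFS7 and NDUFA4. The median was 0.15 against 0.00 over all genes. The difference between the NIF effects of the SUM159 populations was called for none of the 38 genes. Without the second SUM159 ALDHneg DMSO library the count under DMSO was 13 as well. With the replicate block 17 were higher and 2 lower, where 35.2% of all genes were called, and NDUFA8, NDUFA9, NDUFB2, NDUFS6 and NDUFAB1 were added to the higher genes. NDUFB5 read 63.4, 58.9 and 67.6 CPM in ALDHbr and 47.3, 50.5 and 42.97 CPM in ALDHneg libraries (log2 0.43, SE 0.08, adjusted p = 0.00164, edgeR). NDUFB7, a subunit facing the intermembrane space, read 73.8, 80.2 and 79.3 CPM in ALDHbr and 62.9, 61.4 and 58.3 CPM in ALDHneg libraries (log2 0.35, SE 0.06, adjusted p = 0.000993, edgeR). Both genes had all ALDHbr libraries above all ALDHneg libraries. NDUFS1 was the gene lower in ALDHbr cells (log2 -0.22, SE 0.05, adjusted p = 0.00585, edgeR), at 119, 116 and 113 CPM against 131, 136 and 137 CPM. NDUFS1 and NDUFA10 were thus on the low side of ALDHbr cells under both treatments in SUM159, although NDUFA10 passed under NIF only with the block (log2 -0.13, adjusted p = 0.169, and 0.0262 with the block, edgeR).

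**Figure D4:**
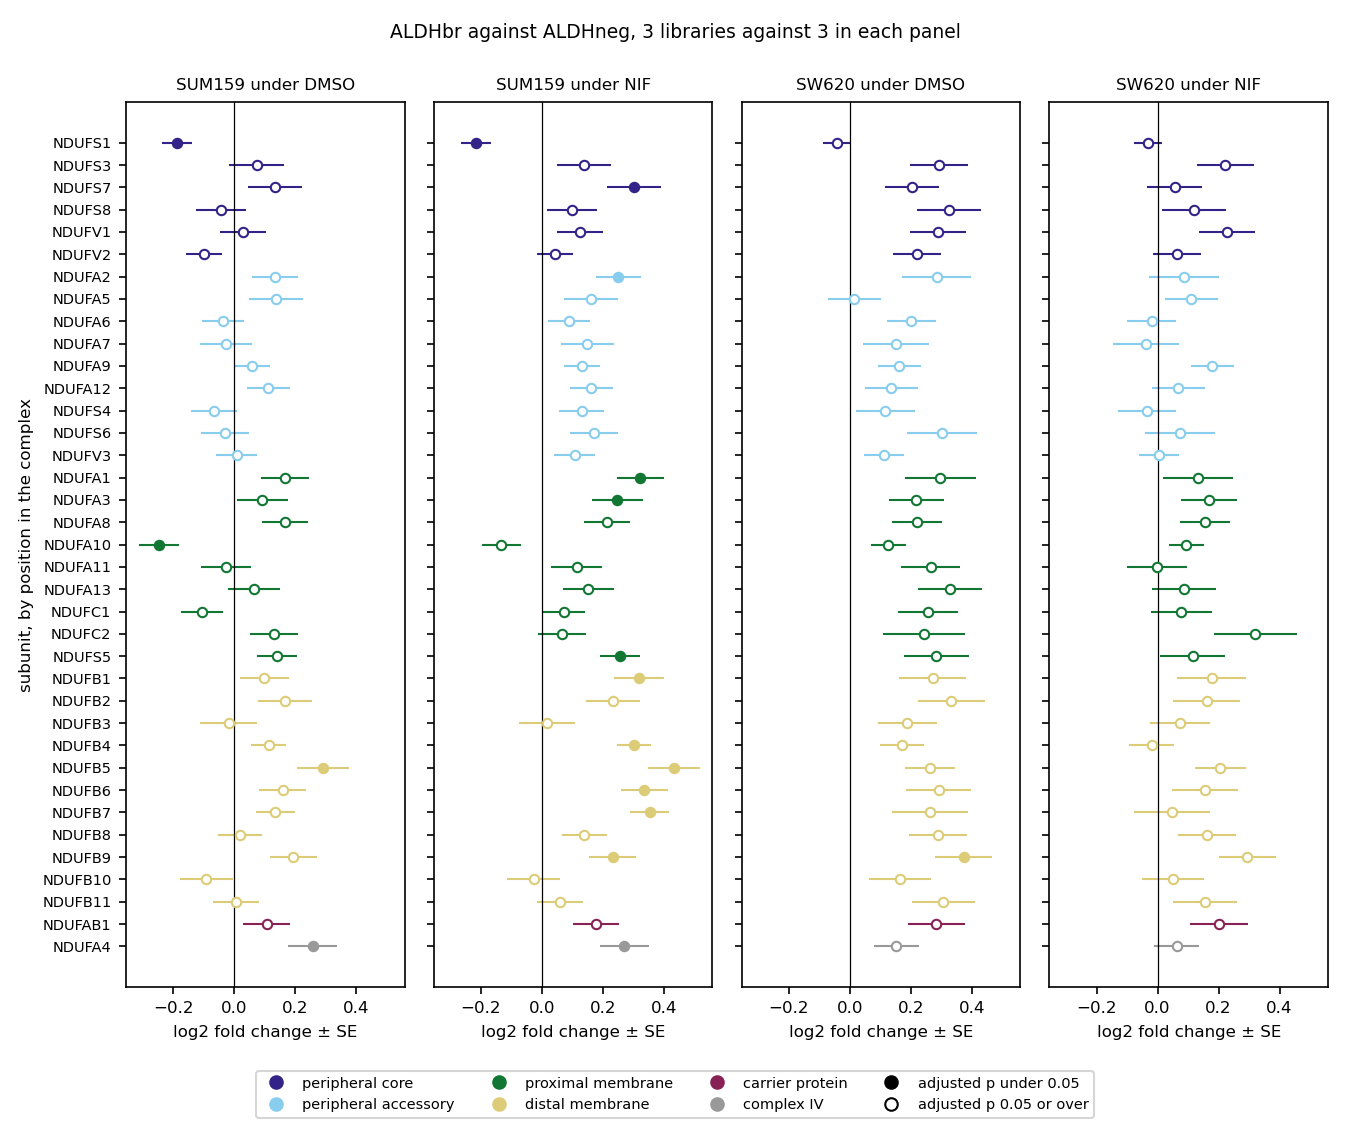
Log2 fold change of ALDHbr against ALDHneg cells (x axis, with SE) for 37 of the 38 genes (y axis, coloured by position), under DMSO and NIF in both lines. Filled points passed an adjusted p of 0.05. In SUM159 4 points are filled under DMSO and 13 under NIF, and in SW620 under DMSO 36 of 37 points lie above 0 with 1 filled. Without the second SUM159 ALDHneg DMSO library 13 of the 38 genes were called in SUM159 under DMSO. No gene was called for the difference between the NIF effects of the SUM159 populations.

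In SW620 under DMSO 37 of 38 genes had a positive difference between ALDHbr and ALDHneg cells, with a median of 0.25 against 0.01 over all genes, but 1 gene was called, where 5.45% of all tested genes were called higher and 5.86% lower. It was NDUFB9, a subunit of the distal arm that binds the acyl carrier protein, at 619, 465 and 599 CPM in ALDHbr and 443, 440 and 417 CPM in ALDHneg libraries (log2 0.37, SE 0.09, adjusted p = 0.0223, edgeR). The second ALDHbr library was the lowest there too. Without it 34 genes were called, all higher in ALDHbr cells, where 38.8% of all genes were called, and without any other single library none was. The number was 10 by DESeq2, where 16% of all genes were called. Under NIF no gene of the set was called, where 3.41% of all genes were called higher and 3.26% lower. At an unadjusted p of 0.05, 6 genes passed, against 21.1% of all genes, and DESeq2 called none, against 8.52% of all genes. The median was 0.09. Lower calls made up 48.9% of the calls over all genes and 38.6% with library-size scaling.

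The comparisons of populations in SW620 also varied with transcript length over the whole table. Across 13210 genes with a length, Spearman's rho between the log2 difference under DMSO and the length of the transcript was -0.46, so that shorter transcripts tended to be higher in ALDHbr cells; genes are not independent replicates and share these libraries. The complex I transcripts are short, with a median of 691 bases (n = 37) against 3142 bases over tested genes, and within them rho was -0.51. Under NIF rho was -0.32 over all genes but 0.07 within the complex I genes. In SW620 ALDHbr cells under NIF against DMSO rho was 0.15 over all genes, and in SUM159 ALDHbr cells it was -0.15. Between the SUM159 populations under NIF rho was 0.04 over all genes and -0.37 within the complex I genes. Under DMSO it was 0.139 and -0.175 there, respectively. For the difference between the NIF effects of the SUM159 populations rho was -0.22 over all genes and -0.37 within the complex I genes. For the difference between the NIF effects of the SW620 populations it was 0.28 over all genes and 0.66 within the complex I genes. The part of length in the differences of the complex I genes was not tested.

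The lines were also compared with each other. The labels do not say whether the lines were prepared together, so line and library preparation cannot be told apart here. Between SW620 and SUM159 ALDHbr cells under DMSO, 20 of the 38 genes were higher in SW620 and 7 lower, where 39.6% of all genes were called higher and 41.7% lower. The values in this comparison are CPM scaled over all 24 libraries. NDUFB9 stood out at 597 ± 87.1 CPM (SD, n = 3) in SW620 against 147 ± 4.49 CPM in SUM159 (log2 2.02, SE 0.09, adjusted p = 7.18e-16, edgeR). NDUFB11, a single-pass subunit of the distal arm, was at 109 ± 16.4 against 50.6 ± 2.35 CPM (log2 1.10, SE 0.10, adjusted p = 1.55e-10, edgeR). In the other direction, NDUFV3, a small accessory subunit of the flavin-bearing tip, was at 24.4 ± 1.49 against 50.3 ± 1.32 CPM (log2 -1.05, SE 0.07, adjusted p = 6.24e-13, edgeR), and NDUFA4 was at 109 ± 9.89 against 163 ± 7.28 CPM (log2 -0.59, SE 0.08, adjusted p = 5.33e-07, edgeR). Scaling by library size shifted the median of all genes in this comparison by -0.15 and the median of the 38 genes from 0.19 to 0.04.

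**Figure D5:**
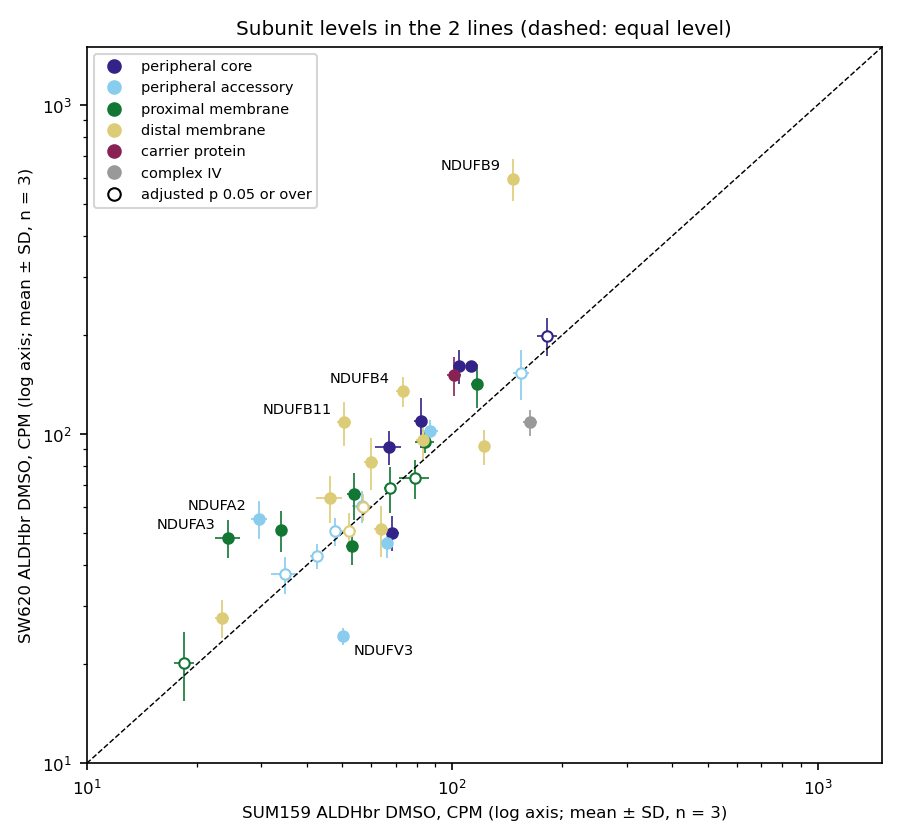
Mean CPM of 37 of the 38 genes in ALDHbr DMSO libraries of SUM159 (x axis) and SW620 (y axis), both on log axes, with SD (n = 3). Filled points differed at an adjusted p of 0.05, the dashed line marks equal levels, and genes more than 0.75 from 0 in log2 difference are named. NDUFB9 at 597 CPM in SW620 lies farthest above the line and NDUFV3 farthest below it. Line and library preparation cannot be told apart in this comparison.

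Levels between genes were compared per kilobase of the GENCODE transcript, which 37 of the 38 genes had. In SUM159 ALDHbr DMSO libraries the highest were NDUFS6 at 299 ± 15.7 CPM per kilobase, NDUFS5 at 236 ± 8.13 and NDUFB9 at 213 ± 6.50. NDUFS6 lay above NDUFS5 by more than their SDs together. In SW620 the order at the top was NDUFB9 at 863 ± 126, NDUFS6 at 297 ± 51.4 and NDUFS5 at 287 ± 44.4, where the last pair did not differ beyond their spread. NDUFC2, NDUFV3, NDUFS1, NDUFA9 and NDUFA5 were the 5 lowest in both lines, at 8.53 to 12.0 CPM per kilobase in SUM159 and 4.25 to 13.8 in SW620. The annotated transcripts of NDUFS1 (11660 bases) and NDUFA9 (8356 bases) are long, and their per-kilobase levels rest on that choice of transcript.

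The proteins that build complex I and the other respiratory complexes were followed from fixed lists. Of 19 assembly factors, 9 fell and 1 rose under NIF in SW620 ALDHbr cells, with a median log2 change of -0.21, and 6 fell and 2 rose in ALDHneg cells. Of all tested genes, 21.9% were called lower and 21.4% higher in ALDHbr cells, and 22.7% and 22.3% in ALDHneg cells, so that the count in ALDHneg cells lay nearer to that of all genes. NUBPL, which delivers iron-sulfur clusters to complex I, fell in both (log2 -0.63 in ALDHbr, SE 0.10, adjusted p = 0.00013, and -0.73 in ALDHneg, SE 0.10, adjusted p = 2.3e-05, edgeR). NDUFAF1, an early assembly factor of the membrane arm, rose in both (log2 0.37, adjusted p = 0.0076, and 0.41, adjusted p = 0.0036, edgeR). In SUM159 none of the 19 was called under NIF in either population. Of all genes there, 0.936% were called higher and 2.23% lower in ALDHbr cells, and 1.1% and 2.2% in ALDHneg cells. The assembly factors were not counted with the replicate block, with which 13.3% and 13.2% of all genes were called. Nor were they counted without the second SW620 ALDHbr DMSO library, where 50.4% of all genes were called for NIF in SW620 ALDHbr cells.

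Among the other complexes in SW620 ALDHbr cells, 2 of 4 genes of complex II, 5 of 9 of complex III, 2 of 10 of complex IV and 12 of 15 of complex V fell under NIF, and none of these genes rose, where 21.9% of all genes were called lower. The share of complex IV was about that of all genes. SDHA, the flavoprotein of succinate dehydrogenase, fell by 0.42 on the log2 scale (adjusted p = 0.00011, edgeR), and UQCRC2, a core protein of complex III, by 0.38 (adjusted p = 1.6e-05, edgeR). ATP5MC1, a ring subunit of the ATP synthase, fell by 0.49 (adjusted p = 0.00049, edgeR). In ALDHneg cells the falls numbered 1, 2, 0 and 6, respectively, with none rising, where 22.7% of all genes were called lower. In SUM159 no gene of these 4 lists was called under NIF in either population. Few genes of the whole table were called there, 0.936% higher and 2.23% lower in ALDHbr cells and 1.1% and 2.2% in ALDHneg cells. These lists were not counted with the replicate block. Nor were they counted without the second SW620 ALDHbr DMSO library, where 50.4% of all genes were called for NIF in SW620 ALDHbr cells.

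Of the 8 tested regulators of mitochondrial genes in SW620, NRF1, TFAM and TFB2M fell in ALDHbr cells, where 21.9% of all genes were called lower. TFAM, which packages and transcribes mitochondrial DNA, changed by -0.34 there (SE 0.05, adjusted p = 0.00015, edgeR) and by -0.45 in ALDHneg cells (SE 0.05, adjusted p = 9.8e-06, edgeR). In ALDHneg cells the same 3 and GABPA fell, and ESRRA and GABPB1 rose, where 22.7% of all genes were called lower and 22.3% higher. The regulators were not counted without the second SW620 ALDHbr DMSO library. NDUFA4L2, a paralogue of NDUFA4, fell in both SW620 populations (log2 -0.95, adjusted p = 0.00053, and -0.81, adjusted p = 0.0012, edgeR). C15orf48, another relative, fell in ALDHbr cells (log2 -1.01, adjusted p = 0.023, edgeR) and had a log2 change of -0.91 in ALDHneg cells, not called. The difference between the populations in the NIF effect was called for neither relative. NDUFA4 itself was not called in either population.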

How the data were processed

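The deposited table holds unnormalised read counts for 24 libraries, with each gene given as a symbol and an Entrez number. The submitters' processing notes name FastQC, STAR and GRCh38; the counting tool, its settings and the annotation are not given in the sources used here. RNA came from a stranded total RNA kit. Reads shared with copies may have been split or dropped: 19 of the 38 genes have a pseudogene named after them and 16 overlap another gene, NDUFC2 among them through its readthrough with KCTD14.

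Tests were run with edgeR 4.0.16 under R 4.3.3 (filterByExpr by group, TMM, glmQLFit and glmQLFTest, Benjamini-Hochberg over all tested genes, threshold 0.05). Each line was fitted apart on 12 libraries, and lines were compared in a fit of all 24. SE is the log2 change divided by the square root of F. Log2 CPM used a prior count of 2. DESeq2 1.42.0, other scalings and filters, the replicate block and leaving out each library were alternatives. The steps were tested on simulated data. Replicates differed by more than sampling noise (chi-square per gene 1.95 to 43.1). Each library held at least 30253187 counts and each of the 38 genes at least 522, so the spread between libraries set the precision.

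Libraries with one replicate number deviated together in SUM159 (r over 0.1 in 18 of 18 pairs, 0.13 to 0.45) but not in SW620 (1 of 18, -0.28 to 0.21), so the numbers were taken to pair SUM159 libraries only.

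Genes named with values were core subunits, NDUFA4, NDUFAB1 and, per comparison, the 3 highest and 3 lowest called genes for NIF against DMSO (the 2 highest and 2 lowest tested where none was called) and the 2 highest and 2 lowest called genes elsewhere; others were named after their values were seen. The members and lists were chosen with earlier results of these data known. Start sites and sequences are RefSeq's on GRCh38.p14, transcript lengths GENCODE's. NDUFB6 had no length. One gene's own values are not reported here; it is counted in the totals.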

Additional observations from a re-analysis of the deposited data

Results flagged for a closer look

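The NIF effect differed between SW620 and SUM159 ALDHbr cells for 11 of the 38 genes by the line by treatment term (edgeR, adjusted over all genes). Of all genes, 10.7% were called negative and 12.4% positive there. The log2 differences, SW620 minus SUM159, were -0.56 for NDUFA9, -0.55 for NDUFAB1, -0.52 for NDUFS3, -0.51 for NDUFB1, -0.41 for NDUFB7, -0.41 for NDUFB3, -0.40 for NDUFB8, -0.38 for NDUFC1, -0.38 for NDUFS5, -0.37 for NDUFA8 and -0.34 for NDUFA10, with adjusted p from 0.000127 (NDUFA9) to 0.0442 (NDUFB7). In ALDHneg cells the term was called for NDUFA9 at -0.49 (adjusted p = 0.000419) and for NDUFAB1 at -0.39 (adjusted p = 0.0296). Of all genes, 10.5% were called negative and 11.9% positive in that test. In ALDHbr cells all 38 differences were negative, so the 11 calls could only share that sign. The 2 genes called in ALDHneg cells were among these 11. Each comparison rested on 3 libraries a group, which all the genes share. No difference between ALDHbr and ALDHneg cells in the NIF effect was called for these genes in either line, by edgeR or by DESeq2; at an unadjusted p of 0.05 the term passed for 2 of the 38 genes in SUM159 and for 0 in SW620.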

How the results depend on the processing

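The counts of called genes moved with the libraries and with the fit. In SUM159, where the numbers pair the libraries, the replicate block gave 8 calls instead of 0 for NIF in ALDHbr cells, 2 instead of 0 in ALDHneg cells and 9 instead of 4 for ALDHbr against ALDHneg under DMSO; in the comparison of the lines' NIF effects it gave 17 instead of 11 in ALDHbr and 3 instead of 2 in ALDHneg cells. Of all genes, 13.3%, 13.2%, 36%, 26.9% and 26.1% were called with the block in these comparisons, in the order given. Elsewhere the block left the counts within 1.5 times.

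Library-size scaling gave 20 calls in SW620 ALDHbr cells under NIF, 8 in SW620 ALDHneg cells, 2 and 1 between the SW620 populations under DMSO and NIF, and 22 and 6 between the lines in the NIF effect of ALDHbr and ALDHneg cells. Fitting only the groups compared gave 3, 21, 0, 2, 6 and 3 in the same order. The share of all genes called moved with these settings too. For NIF in SW620 ALDHbr cells it was 44.3% with library-size scaling and 32.6% in the fit of only those groups. For NIF in SW620 ALDHneg cells it was 60.6% in the fit of only those groups. For the SW620 populations, no filter on low counts gave 10 under DMSO and 1 under NIF, DESeq2 10 and the fit of all 24 libraries 6 under DMSO. For the lines in ALDHneg cells, RLE size factors, no filter, at least 10 counts in every library and DESeq2 each gave 3. DESeq2 gave 1 for NIF in SUM159 ALDHneg cells, where 7.33% of all genes were called. By DESeq2 between the SW620 populations under DMSO that share was 16%. For the other counts of this paragraph the share of all genes is not given here, so they are not read against it.

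Leaving out each library in turn gave 0 to 2 calls for NIF in SUM159 ALDHneg cells, 1 to 13 and 8 to 11 between the SUM159 populations under DMSO and NIF, 4 to 30 and 2 to 4 for NIF in SW620 ALDHbr and ALDHneg cells, 0 to 34 and 0 to 1 between the SW620 populations under DMSO and NIF, and 5 to 26 and 1 to 5 for the lines in the NIF effect of ALDHbr and ALDHneg cells. The highest counts of 13, 30, 34 and 26 came without the second SUM159 ALDHneg DMSO library or the second SW620 ALDHbr DMSO library. Of all genes, 20.3%, 50.4%, 38.8% and 28% were called there, in the same order. The 2 calls in SW620 ALDHneg cells came without the second DMSO library, the 1 call between SW620 populations under NIF without the first ALDHbr NIF library, and the lowest counts of 8 between the SUM159 populations under NIF without the first or the third ALDHneg library. The 5 for the lines in ALDHneg cells came without the second SUM159 ALDHneg DMSO library.

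NDUFA4, near 0 in SW620 ALDHbr cells, had a log2 change of -0.0289 with library-size scaling, -6.99e-05 with the replicate block and -0.0607 to 0.0627 without single libraries, with adjusted p of 0.443 or more (edgeR). Among 1256 values of single genes under alternatives, 195 kept their sign and lost the call, and 18 gained it. The lowest count of any of the 38 genes in a library was 522.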

Other observations

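The subunits of the other respiratory complexes were also compared between the SUM159 populations. Under NIF 8 of 10 genes of complex IV were higher in ALDHbr than in ALDHneg cells and none lower, with a median log2 difference of 0.26, in a comparison with 9.95% of all genes called higher. COX6C (log2 0.35, SE 0.07, adjusted p = 0.0031, edgeR) and COX7C (log2 0.34, SE 0.07, adjusted p = 0.004, edgeR), small subunits of cytochrome c oxidase, led them. Under DMSO the same list had 2 genes higher, COX7C and COX6C, and a median of 0.16, where 10.7% of all genes were called higher. Complex V had 4 of 15 genes higher under NIF and 2 under DMSO, with ATP5F1A, the alpha subunit of the catalytic head, highest (log2 0.59, SE 0.08, adjusted p = 7.8e-05, edgeR, under NIF). Complex III had 3 of 9 higher under NIF and none under DMSO, and complex II none under either. The difference between the NIF effects of the SUM159 populations was called for no gene of complexes II to V. None of them passed an unadjusted p of 0.05 in that test, where 1.59% of all genes did. The DMSO groups include the second ALDHneg library, which stood high in the complex I genes, and these lists were not counted without it or with the replicate block.

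Of the 19 complex I assembly factors, 4 were called between the SUM159 populations under DMSO, a share near the 23% of all genes called there. DMAC1 (log2 0.43, adjusted p = 0.0037, edgeR) and FOXRED1 (log2 0.32, adjusted p = 0.015, edgeR) were higher in ALDHbr cells, and NDUFAF3 (log2 -0.36, adjusted p = 0.0042, edgeR) and NDUFAF7 (log2 -0.33, adjusted p = 0.0057, edgeR) lower. All 4 were called under NIF with the same sign, where 9.95% of all genes were called higher and 12% lower. The share of all genes called under both treatments was not counted. PPARGC1A and PPARGC1B, coactivators of mitochondrial genes, differed in opposite directions under DMSO (log2 -2.33, adjusted p = 0.0056, and 0.47, adjusted p = 0.0013, edgeR). Neither the assembly factors nor these regulators were counted with the replicate block or without the second ALDHneg DMSO library. Under DMSO 36% of all genes were called with the block and 20.3% without that library.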
